A study of Mus musculus with 23 samples.

Results

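Neuronal genes were followed through RNA sequencing libraries of astrocytes from mouse cerebral cortex. The set held 32 genes of the 24411 gene symbols in the count table, chosen by symbol for what they mark in neurons: 14 pan-neuronal genes, 3 glutamate receptor subunits, 6 genes of excitatory neurons, 7 of inhibitory neurons and 2 of immature neurons. All 32 were in the table and all 32 passed the filter on low counts, with at least 24 reads in any library. Each of the 23 libraries came from 1 mouse labelled male, at postnatal day 70, and astrocytes were enriched from dissociated cortex by magnetic sorting for ACSA-2, a surface antigen of astrocytes. The study asked what loss of ALDH7A1 from astrocytes and a diet with sulforaphane (SFN) do to the astrocyte transcriptome. ConAstro mice (n = 4) carried 2 floxed Aldh7a1 alleles and no Cre, and ate a control diet. In cKOAstro mice (n = 7) the same alleles were combined with a tamoxifen-inducible Cre (CreER) at 1 allele of Slc1a3, the gene of a glutamate transporter of astrocytes and other glia, so that deletion follows the cells that use this gene and 1 Slc1a3 copy is replaced. Both genotypes were also raised on the SFN diet from postnatal day 21, as SFN-fed ConAstro (n = 5) and as SFN-fed cKOAstro (n = 7). All 4 groups received 4-hydroxytamoxifen on postnatal days 3 and 4, ConAstro included.

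Synaptic vesicle release depends on SNAP-25 (Snap25) and on the calcium sensor synaptotagmin 1 (Syt1), which nearly all mature neurons make. Excitatory cortical neurons load glutamate into vesicles with VGLUT1 (Slc17a7), and inhibitory neurons load GABA with VGAT (Slc32a1). Subclasses of inhibitory neurons are told apart by the peptides somatostatin (Sst), neuropeptide Y (Npy) and vasoactive intestinal peptide (Vip) or by the calcium buffer parvalbumin (Pvalb). The gene of the peptide cholecystokinin (Cck) was listed with the inhibitory genes, which does not show that its RNA came from inhibitory neurons. Newborn neurons make doublecortin (Dcx) and the transcription factor SOX11. Neuronal transcripts in a sorted astrocyte preparation can come from neurons, neuronal fragments, free RNA or low expression in glia, and bulk RNA does not separate these, nor fewer cells of a type from less RNA per cell.

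Total counts per library lay between 46890715 and 391701247. They were 74771451 to 84049525 in ConAstro and 107847897 to 391701247 in cKOAstro, so the ranges of these 2 groups did not overlap. Aldh7a1 marked the genotype at 207 to 220 CPM (counts scaled to the library total corrected by TMM, edgeR's normalization) in ConAstro and 45.9 to 77.2 CPM in cKOAstro, but SFN-fed ConAstro replicate 1 had 55.7 CPM and SFN-fed cKOAstro replicate 2 had 222 CPM, so both libraries went against their labels. The library labelled cKOAstro replicate 2 carried 1541 CPM of Xist, the RNA of the silenced X chromosome, and was the only library with near-absent Ddx3y, a gene of the Y chromosome. Library names came in 2 series, 17 with numbers and 6 with the prefix Astro, and the Astro names were those of 2 libraries of cKOAstro, 3 of SFN-fed cKOAstro, 1 of SFN-fed ConAstro and 0 of ConAstro. Astrocyte identity was clear from its defining markers, with Aqp4 at 389 to 934 CPM, Gja1 at 1498 to 2508 CPM and Aldh1l1 at 263 to 448 CPM. Markers of other glia and of vessels were present too: the summed CPM of the 10 oligodendrocyte markers was 23786 to 61048, that of the 11 microglia markers 334 to 3602, that of the 10 ependymal markers 226 to 942 and that of the 7 choroid plexus markers 10.6 to 4378. Of the defining markers of striatal neurons, the dopamine receptor gene Drd1 was at 0.128 to 0.841 CPM and Adora2a at 9.69 to 23.7 CPM. Of 5 red blood cell genes, 4 were at 0 in every library, among them the hemoglobin gene Hba-a1, and Alas2 was at 0.501 to 18.5 CPM. A value of 0 in every library does not show whether the hemoglobin genes were counted at all.

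Promoter letters are shown for 5 members, 2 whose level followed that of Snap25 between libraries (Syn1 and Vip) and 3 whose level did not (Pvalb, Elavl3 and Npy), since these behaviours are what the results below turn on. Of the 32 members, 24 had a window in the RefSeq promoter table (GRCm38.p6), each running from 250 bases before the gene's start to 50 after it, and the stretches printed hold only bases before the start that lie in no annotated exon. Capitals mark the letters searched on both strands: TGACGTCA, the cAMP response element; CAGCACC and GGACAGC, the left and right parts of RE1, the site read by the neuronal repressor REST; and TATAAA, the TATA box. In these stretches no marked motif overlapped another.
Syn1 (chrX:20921005-20921168, minus strand): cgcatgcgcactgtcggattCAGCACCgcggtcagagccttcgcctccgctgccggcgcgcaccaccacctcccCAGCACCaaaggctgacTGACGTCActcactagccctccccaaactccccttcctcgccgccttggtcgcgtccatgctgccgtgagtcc
Vip (chr10:5638968-5639217, plus strand): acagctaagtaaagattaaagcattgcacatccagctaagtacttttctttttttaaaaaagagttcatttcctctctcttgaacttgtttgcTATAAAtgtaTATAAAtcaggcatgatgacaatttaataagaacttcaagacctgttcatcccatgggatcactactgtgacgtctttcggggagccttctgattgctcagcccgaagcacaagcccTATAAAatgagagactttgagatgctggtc
Pvalb (chr15:78206401-78206650, minus strand): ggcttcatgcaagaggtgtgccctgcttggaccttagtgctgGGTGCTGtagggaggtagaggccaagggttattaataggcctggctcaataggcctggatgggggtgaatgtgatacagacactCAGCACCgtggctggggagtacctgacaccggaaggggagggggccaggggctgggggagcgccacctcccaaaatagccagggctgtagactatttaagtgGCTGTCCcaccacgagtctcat
Elavl3 (chr9:22052024-22052273, minus strand): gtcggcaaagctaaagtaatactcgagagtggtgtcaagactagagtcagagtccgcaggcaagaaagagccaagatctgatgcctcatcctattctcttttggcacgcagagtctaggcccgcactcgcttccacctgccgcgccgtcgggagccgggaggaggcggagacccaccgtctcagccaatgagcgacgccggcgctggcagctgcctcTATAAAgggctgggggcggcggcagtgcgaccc
Npy (chr6:49822460-49822709, plus strand): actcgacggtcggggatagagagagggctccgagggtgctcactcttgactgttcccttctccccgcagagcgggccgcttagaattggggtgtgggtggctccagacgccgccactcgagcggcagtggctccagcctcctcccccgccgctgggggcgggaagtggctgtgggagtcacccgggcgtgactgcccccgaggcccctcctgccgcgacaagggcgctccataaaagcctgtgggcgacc

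The Syn1 stretch held 2 copies of CAGCACC and 1 TGACGTCA, the Vip stretch 3 copies of TATAAA, the Pvalb stretch CAGCACC on both strands and 1 GGACAGC, and the Elavl3 stretch 1 TATAAA. None of these letters was found in the Npy stretch, or in a further Pvalb stretch that is not printed. Over whole windows, TGACGTCA was in those of Sst and Syn1, against 1.79% of 32851 windows of all genes. This share and those below are of windows, whereas a member counts if any of its windows holds the letters. CAGCACC was in the windows of Pvalb, Syn1 and Tubb3 (7.14% of all windows) and GGACAGC in those of Dlx1, Pvalb, Tubb3 and Vip (6.56%). TATAAA was in the windows of Bcl11b, Dcx, Elavl3, Eno2 and Vip (13.6% of all windows). These matches are letters in a window and describe no binding.

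Per kilobase of exon, the members' levels in ConAstro were low beside those of astrocyte genes. Their median was 3.6 CPM per kb, whereas the 15 astrocyte markers ranged from 31.4 CPM per kb for Gfap to 2354 for Glul, with a median of 201. Npy headed the order at 62.8 ± 114 CPM per kb (SD, n = 4), a mean set by 1 library described below. Elavl3, a neuronal RNA-binding protein, followed at 45.8 ± 5.74 CPM per kb, Camk2a, the alpha subunit of a calcium-dependent kinase of excitatory synapses, at 39.0 ± 34.5, and Tubb3, a neuronal tubulin, at 32.4 ± 8.50. The vesicle protein Syp stood at 22.04 ± 7.10, Snap25 at 16.7 ± 7.80, Slc17a7 at 15.8 ± 8.46 and Syn1 at 14.7 ± 6.17 CPM per kb. At the low end were Slc32a1 at 0.860 ± 0.468, Dcx at 0.442 ± 0.0747, the cortical layer 5 factor Bcl11b at 0.385 ± 0.168, the NMDA receptor subunit Grin2b at 0.373 ± 0.0744 and Vip at 0.296 ± 0.201 CPM per kb. In each of the 31 pairs of neighbours in this order, the ranges over the 4 ConAstro libraries overlapped, so no neighbour was set apart from the next. VGLUT1 transcripts were thus more abundant per length than VGAT transcripts in all 4 ConAstro libraries, with ranges of 8.27 to 27.0 and 0.397 to 1.32 CPM per kb.

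Summed over the set, members made up 0.0991% to 0.228% of the counts of a library. The sum was 999 to 2296 CPM in ConAstro, 1196 to 2127 CPM in cKOAstro, 1328 to 1845 CPM in SFN-fed ConAstro and 1198 to 2014 CPM in SFN-fed cKOAstro. These 4 ranges overlapped. The pan-neuronal genes gave 737 to 1622 CPM of it, the excitatory genes 54.2 to 850 CPM and the inhibitory genes 20.1 to 169 CPM. The glutamate receptors gave 38.7 to 101.4 CPM and the immature genes 23.7 to 36.1 CPM. Single genes made up much of some of these sums. Camk2a gave 710 of the 850 CPM of excitatory genes in SFN-fed cKOAstro replicate 7. Npy gave 133 of the 169 CPM of inhibitory genes in ConAstro replicate 3. Elavl3 gave 685 of the 1038 CPM of pan-neuronal genes in SFN-fed cKOAstro replicate 4.

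Snap25 was at 186, 83.8, 119 and 65.9 CPM in ConAstro replicates 1 to 4. In cKOAstro it lay between 98.3 and 300 CPM with a median of 131, in SFN-fed ConAstro replicates 1 to 5 at 124, 154, 66.5, 137 and 224 CPM, and in SFN-fed cKOAstro between 40.8 and 258 CPM with a median of 148. The highest Snap25 library was cKOAstro replicate 4 and the lowest was SFN-fed cKOAstro replicate 4, both with Astro names, and the 4 groups overlapped. Syt1 was at 104, 48.0, 73.0 and 37.4 CPM in ConAstro, at 57.2 to 154 CPM (median 65.6) in cKOAstro, at 59.8, 90.6, 32.5, 90.1 and 140 CPM in SFN-fed ConAstro, and at 17.8 to 132 CPM (median 93.0) in SFN-fed cKOAstro. It had its extremes in the same libraries as Snap25.

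Slc17a7, the glutamate loader, was at 146, 56.2, 95.02 and 44.6 CPM in ConAstro, at 60.2 to 158 CPM (median 74.5) in cKOAstro, at 91.3, 87.8, 57.9, 93.4 and 144 CPM in SFN-fed ConAstro, and at 21.01 to 138 CPM (median 114) in SFN-fed cKOAstro. Slc32a1, the GABA loader, was at 3.37, 1.45, 3.68 and 1.11 CPM in ConAstro, at 1.77 to 5.09 CPM (median 2.89) in cKOAstro, at 2.46, 2.78, 2.24, 2.78 and 4.24 CPM in SFN-fed ConAstro, and at 0.614 to 3.27 CPM (median 3.13) in SFN-fed cKOAstro. For both loaders SFN-fed cKOAstro replicate 4 was lowest of all libraries and the groups overlapped. Sst was at 4.94, 1.79, 2.89 and 0.562 CPM in ConAstro, at 1.21 to 9.55 CPM (median 4.14) in cKOAstro, at 1.47, 2.62, 2.10, 1.48 and 3.02 CPM in SFN-fed ConAstro, and at 0.238 to 8.54 CPM (median 3.14) in SFN-fed cKOAstro. Its lowest library was again SFN-fed cKOAstro replicate 4 and its highest was cKOAstro replicate 7, and the groups overlapped.

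Npy, a peptide of a subclass of inhibitory neurons, was at 6.36, 1.22, 133 and 1.88 CPM in ConAstro, at 3.16 to 26.7 CPM (median 5.61) in cKOAstro, at 2.03, 4.52, 1.92, 2.74 and 5.02 CPM in SFN-fed ConAstro, and at 1.70 to 22.5 CPM (median 4.03) in SFN-fed cKOAstro. ConAstro replicate 3 stood above every other library. It held 11670 reads of Npy. The groups overlapped also for Npy. Of the 2 genes of newborn neurons, Dcx was at 6.91, 4.90, 4.92 and 5.61 CPM in ConAstro, at 4.48 to 8.57 CPM (median 6.43) in cKOAstro, at 3.54, 6.36, 3.88, 5.24 and 9.22 CPM in SFN-fed ConAstro, and at 3.53 to 6.63 CPM (median 4.97) in SFN-fed cKOAstro. Sox11 was at 24.8, 24.3, 23.8 and 26.0 CPM in ConAstro, at 20.6 to 27.6 CPM (median 24.1) in cKOAstro, at 20.1, 23.6, 24.3, 22.5 and 23.4 CPM in SFN-fed ConAstro, and at 21.2 to 27.1 CPM (median 22.9) in SFN-fed cKOAstro. Neither gene was low in SFN-fed cKOAstro replicate 4, at 6.12 CPM for Dcx and 24.9 CPM for Sox11.

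**Figure D1:**
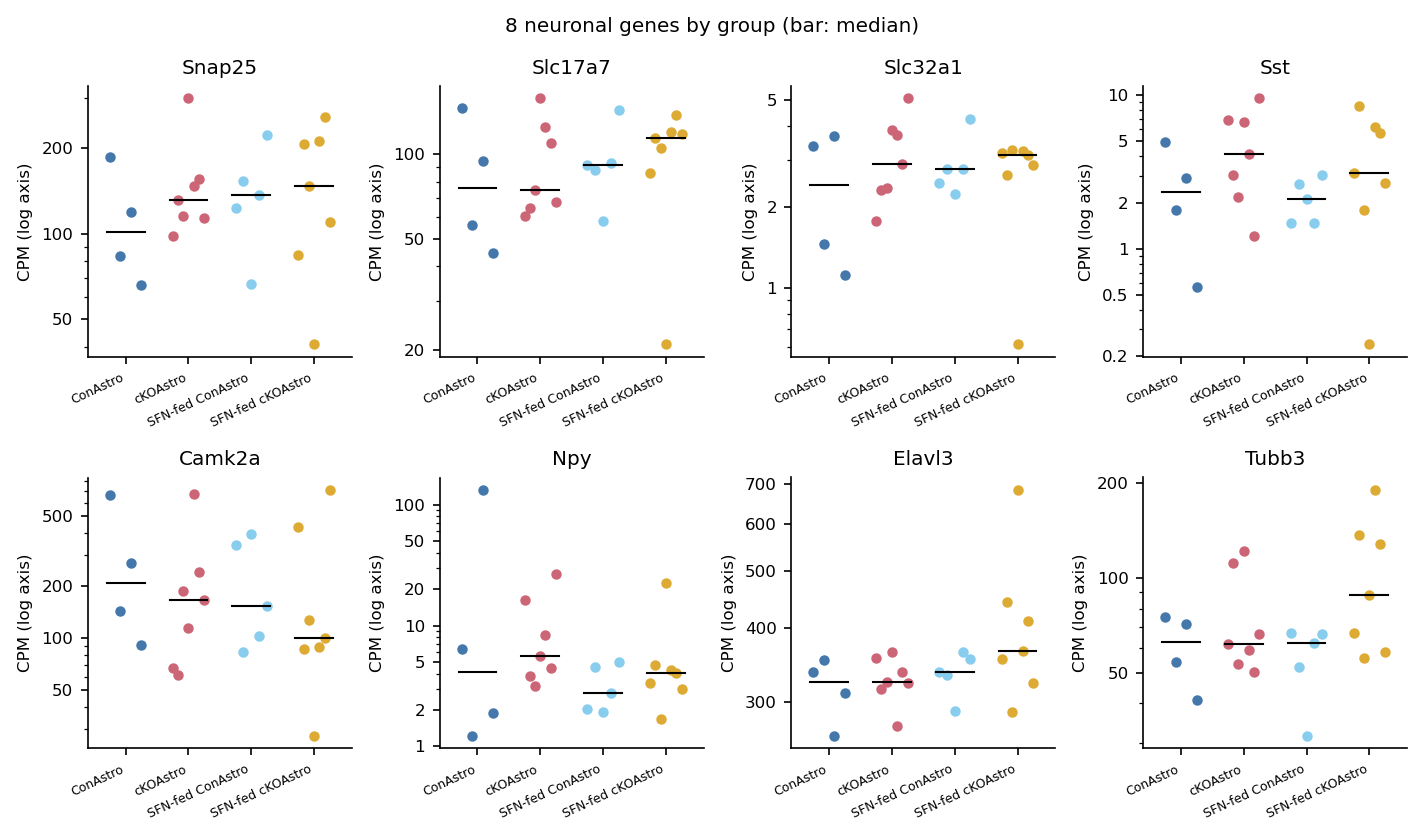
CPM (log axis) of 8 neuronal genes in each library, by group, with a bar at the group's median. The groups overlap for all 8 genes, Npy has 1 library at 133 CPM in ConAstro, and Elavl3 has 1 library at 685 CPM in SFN-fed cKOAstro.

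Levels of most members varied more between libraries than those of a typical gene. The SD of log2 CPM over the 23 libraries had a median of 0.62 for the members and 0.23 for the 17302 genes that passed the filter, and 31 of 32 members were above the latter. Npy (SD 1.52), Sst (1.24), Camk2a (1.23) and Vip (1.12) lay above the 95th percentile of all genes. Sox11, at 0.12, was the exception below the median gene. Within groups the members' median SD was 0.66, against 0.22 for all genes, so mice of the same group differed too. A single library, SFN-fed cKOAstro replicate 4, was the lowest of 23 for 23 of the 32 members and the highest for Elavl3, at 685 CPM. The library cKOAstro replicate 4 was the highest for 12 members, among them Snap25, Syt1, Slc17a7, Grin1, Cck and Vip. SFN-fed cKOAstro replicate 4 also had the highest oligodendrocyte marker sum, 61048 CPM against 23786 to 38428 in the other libraries, and the lowest astrocyte marker sum, 26386 CPM against 27244 to 41353. The part of these marker levels in the results was not tested.

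**Figure D2:**
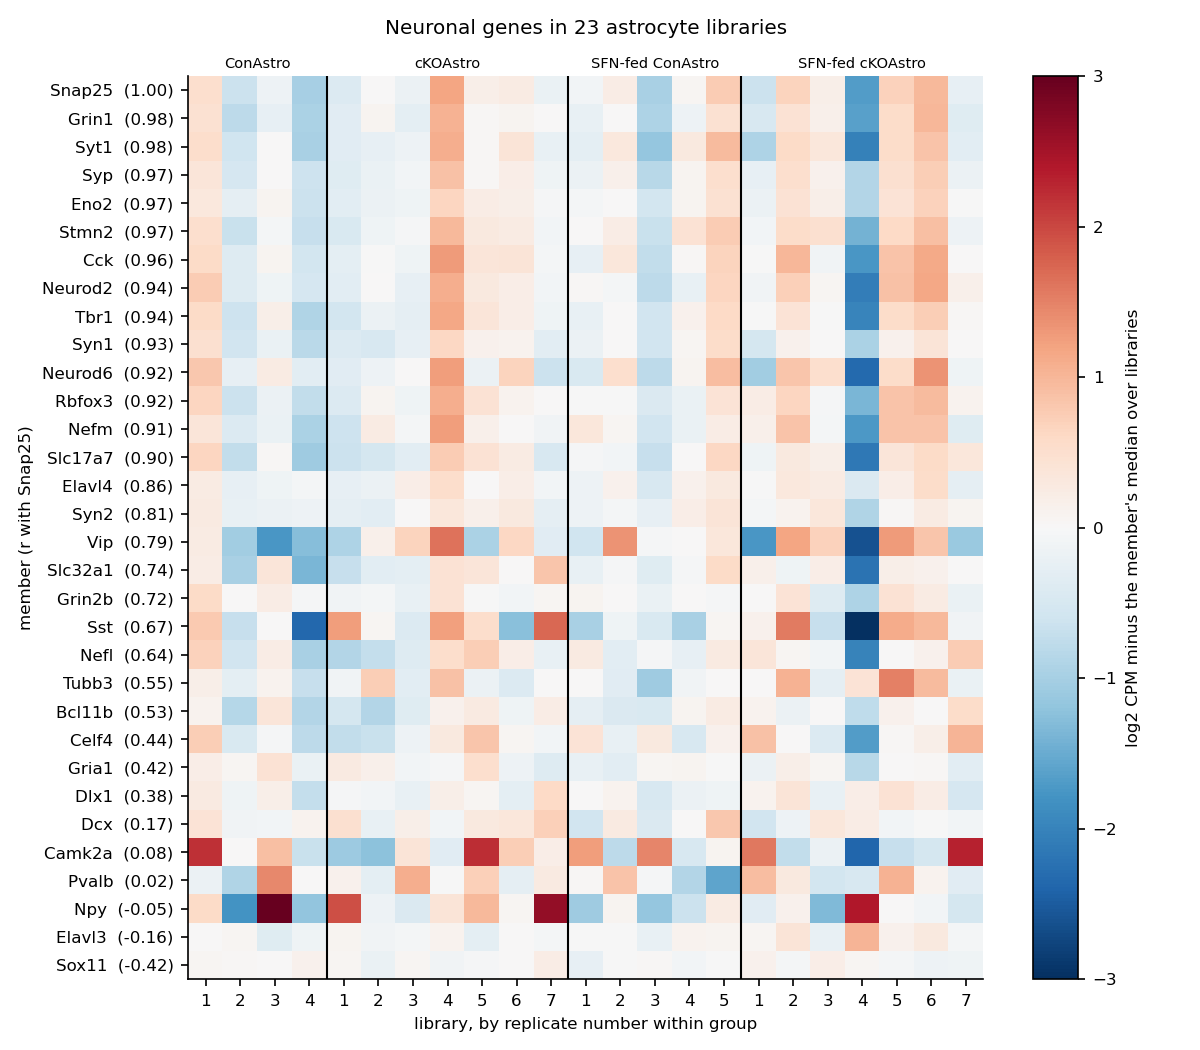
Level of each member (rows, ordered by Pearson's r with Snap25, given in parentheses) in each library (columns, by group and replicate number), as log2 CPM minus the member's median over 23 libraries, with colours limited to -3 to 3. Most rows share the high column cKOAstro 4 and the low column SFN-fed cKOAstro 4, while Camk2a, Pvalb, Npy, Elavl3 and Sox11 at the bottom have their own columns of high and low levels.

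No member passed the adjusted threshold in any comparison of groups. Each comparison of 2 groups was tested with edgeR's quasi-likelihood test on those groups, with Benjamini-Hochberg adjustment over all genes tested, and 0 of 32 members had an adjusted p under 0.05 in any of the 6 comparisons, nor with DESeq2. ConAstro serves as the control in 3 comparisons, which are therefore not independent of each other. Group ranges of CPM overlapped for all 32 members in all 5 comparisons of 2 groups.

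Between cKOAstro and ConAstro on the control diet, 26 members had a higher and 6 a lower mean in cKOAstro, with a median log2 fold change of 0.16 where the median over all genes was -0.01. All 14 pan-neuronal genes had higher means in cKOAstro, with a median of 0.20, among them Snap25 at 0.41. Of all genes, 47.6% had a higher mean in cKOAstro. Members varied together between libraries, so these counts are not independent. Every cKOAstro library was also deeper in total counts than every ConAstro library. The members' median was 0.022 without cKOAstro replicate 4 and 0.42 without ConAstro replicate 1. Markers of other cells differed in mean between the same groups, with 0 past the adjusted threshold: 10 of 10 endothelial markers (median -0.48), 7 of 7 of choroid plexus (-1.18) and 11 of 11 of microglia (-0.24) had lower means in cKOAstro, and 10 of 10 ependymal markers had higher ones (0.32). Their part in the members' values was not tested. The widest value was that of Npy at -1.88, with ConAstro replicate 3 at 133 CPM. The lowest p among members was that of Vip, with a log2 fold change of 1.13 ± 0.55 (SE) and an edgeR unadjusted p of 0.0610 (adjusted p = 0.981). None of the members reached an unadjusted p of 0.05 with edgeR and 1 did with DESeq2, while without ConAstro replicate 1 edgeR gave 5 such members. Over all genes, 0.023% of 17406 passed the adjusted threshold, 3.74% had an unadjusted p under 0.05 and 0.485% of 17302 had group ranges that did not overlap. The SE of a member's log2 fold change had a median of 0.31 and ran from 0.08 for Sox11 to 1.07 for Npy, which sets the size of a difference that could be seen.

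Between SFN-fed cKOAstro and SFN-fed ConAstro, the median log2 fold change of the members was 0.12, beside 0.01 over all genes. There were 25 members higher and 7 lower, where 51.2% of all genes were higher. Means of 10 of 10 endothelial markers (median -0.80), 11 of 11 microglia markers (-0.50), 7 of 7 choroid plexus markers (-2.18) and 7 of 7 fibroblast markers (-0.62) were lower in SFN-fed cKOAstro, with 0 past the adjusted threshold, and their part was not tested. Tubb3, which builds axonal microtubules, had the lowest p. It was at 67.0, 52.2, 31.6, 62.4 and 66.6 CPM in SFN-fed ConAstro and between 55.7 and 190 CPM (median 88.4) in SFN-fed cKOAstro, so that the groups overlapped. Its log2 fold change was 0.88 ± 0.32 (edgeR unadjusted p = 0.0155, adjusted p = 0.195). It was 1 of 32 members with an unadjusted p under 0.05, where 20.3% of all genes had one, and the adjusted threshold was passed by 0% of 16672 genes (0 genes with edgeR, 254 with DESeq2, and 701 with edgeR without SFN-fed cKOAstro replicate 3), while 1.19% of genes had group ranges apart. Library name moved with Tubb3: the 3 Astro-named SFN-fed cKOAstro libraries had 88.4 to 190 CPM and the 4 numbered ones 55.7 to 137 CPM, and the 2 Astro-named cKOAstro libraries had 111 and 122 CPM where the 5 numbered ones had 50.4 to 66.7 CPM. Within numbered names the log2 fold change was 0.56 ± 0.33 (edgeR adjusted p = 0.449). Without the 2 libraries that went against their labels it was 0.88 ± 0.37 (edgeR adjusted p = 0.316).

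In ConAstro mice the SFN diet went with a median log2 fold change of 0.08 over the members, beside -0.01 over all genes. Of the members 21 were higher and 11 lower, where 48.4% of all genes were higher. Without 1 library at a time the members' median ran from -0.071 (ConAstro replicate 4) to 0.33 (ConAstro replicate 1). Means were higher with SFN for 10 of 10 endothelial markers (median 0.59), 8 of 8 mural (0.36), 11 of 11 microglia (0.17) and 9 of 9 oligodendrocyte precursor markers (0.12), and lower for 10 of 10 ependymal markers (-0.31), with 0 past the adjusted threshold and a part that was not tested. Of the members, 2 had an unadjusted p under 0.05, against 6.54% of 16509 genes. Npy had a log2 fold change of -3.49 ± 1.25 (edgeR unadjusted p = 0.0195, adjusted p = 0.762), and without ConAstro replicate 3 it was 0.03 ± 0.55. The other was Vip at 1.12 ± 0.49 (edgeR unadjusted p = 0.0450, adjusted p = 0.762), with 2.01, 0.814, 0.500 and 0.703 CPM in ConAstro against 1.11, 4.30, 1.66, 1.69 and 2.15 CPM in SFN-fed ConAstro, where the ranges overlapped through ConAstro replicate 1. The adjusted threshold was passed by 0% of all genes (0 genes with edgeR, 21 with DESeq2), and 1.97% had group ranges apart.

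In mice of the deleted genotype, SFN-fed cKOAstro and cKOAstro differed by a median log2 fold change of 0.05 over the members, beside 0.01 over all genes. Higher with SFN were 18 members and lower 14, where 51.5% of all genes were higher. Means were higher with SFN for 10 of 10 oligodendrocyte markers (median 0.31) and 10 of 10 endothelial markers (0.30), and lower for 10 of 10 ependymal (-0.45), 7 of 7 choroid plexus (-0.65) and 7 of 7 fibroblast markers (-0.26), with 0 past the adjusted threshold, and their part was not tested. The value was -0.003 ± 0.35 for Snap25 and -0.0009 ± 0.07 for Sox11. None had an unadjusted p under 0.05 with edgeR or DESeq2, against 10.9% of 16903 genes, and the adjusted threshold was passed by 0% of genes (0 with edgeR, 6 with DESeq2). Elavl3 had the lowest p, with a log2 fold change of 0.33 ± 0.16 (edgeR unadjusted p = 0.0596, adjusted p = 0.467). Elavl3 lay between 273 and 365 CPM in cKOAstro and between 288 and 685 CPM in SFN-fed cKOAstro, and without SFN-fed cKOAstro replicate 4 its log2 fold change was 0.15. Only 0.0925% of genes had group ranges apart in this comparison.

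Between SFN-fed cKOAstro and ConAstro the members' median log2 fold change was 0.21, beside -0.01 over all genes. Means were higher for 25 members, among them all 14 pan-neuronal genes, and lower for 7, where 47.6% of all genes were higher. The 10 oligodendrocyte markers also had higher means (median 0.32), whereas 7 of 7 choroid plexus markers (-1.70), 11 of 11 microglia markers (-0.33) and 10 of 10 ependymal markers (-0.13) had lower ones, with 0 past the adjusted threshold, and their part was not tested. Tubb3 (0.76 ± 0.34, edgeR unadjusted p = 0.0470, adjusted p = 0.557) and Npy (-2.51 ± 1.10, edgeR unadjusted p = 0.0424, adjusted p = 0.557) were the 2 members with an unadjusted p under 0.05, against 8.67% of 16753 genes. Npy was again set by ConAstro replicate 3, without which its log2 fold change was 0.97, and Tubb3 within numbered names was at 0.37 ± 0.32. Without the 2 libraries that went against their labels, 0 members had an unadjusted p under 0.05. The adjusted threshold was passed by 0% of genes (0 with edgeR, 8 with DESeq2), and 1.44% had group ranges apart.

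For the interaction of genotype and diet, fitted on all 4 groups, the median over the members was 0.002 on the log2 scale. Values of 17 members were above 0 and of 15 below, where 49.4% of all genes were above 0. Npy alone had an unadjusted p under 0.05 (2.80 ± 1.29, edgeR unadjusted p = 0.0405, edgeR adjusted p = 0.674), against 7.32% of 17302 genes, and without ConAstro replicate 3 its value was -0.72. The adjusted threshold was passed by 0% of genes (0 with edgeR, 8 with DESeq2). Without the 2 libraries that went against their labels, and also without the Xist library, 0 members had an unadjusted p under 0.05 and the members' median was -0.10 and -0.15.

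**Figure D3:**
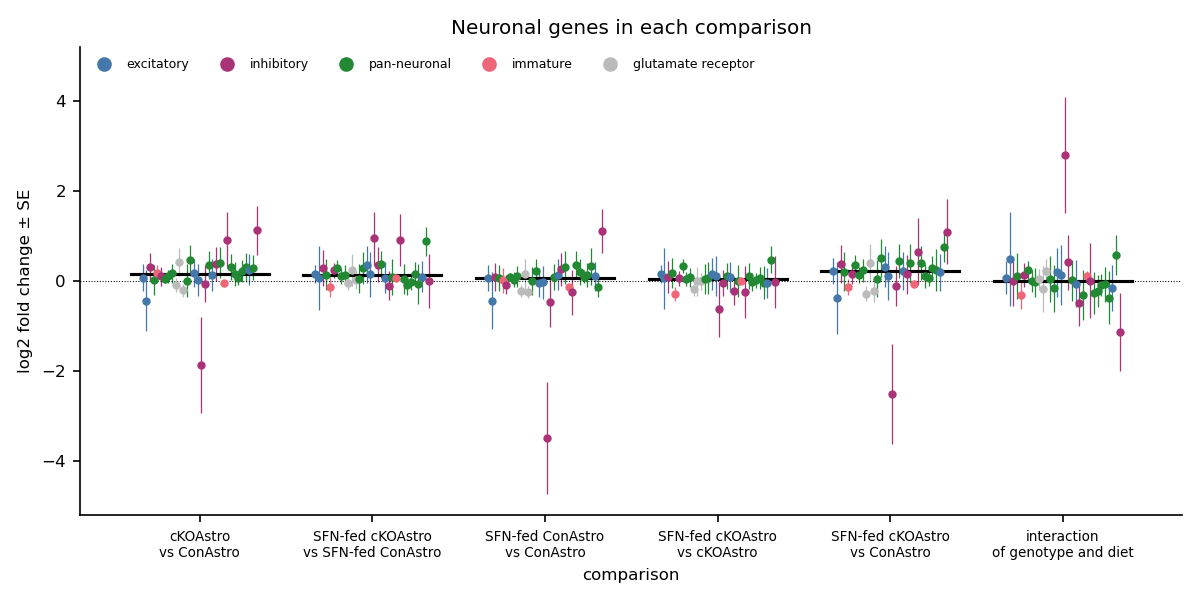
Log2 fold change ± SE (edgeR) of the 32 members, in alphabetical order from left to right within each comparison. Points are coloured by the list they belong to, with a bar at the members' median. Medians lie between 0.002 and 0.21, and the most distant points are those of Npy at -3.49, -2.51, -1.88 and 2.80, in the comparisons that use ConAstro, where 1 library was at 133 CPM.

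Differences between mice were shared among most members. Over the 23 libraries, log2 CPM of 22 of the other 31 members correlated with that of Snap25 at an adjusted p under 0.05, and 12 had r above 0.9. This was a two-sided permutation test of Pearson's r with 100000 permutations and Benjamini-Hochberg adjustment over 61 relations. The r of all 22 were positive. By rank, Tubb3, Nefl, Sst and Bcl11b missed the threshold. Of all genes that passed the filter, 0.965% had r above 0.9 with Snap25, and 4.53% had r above 0.6. The NMDA receptor subunit Grin1 and Syt1 had r of 0.98 (Spearman's rho 0.97 and 0.98), and Syp, Stmn2 and the neuronal enolase Eno2 had 0.97. Among markers of excitatory neurons, the transcription factors Neurod2 and Tbr1 had r of 0.94, Neurod6 0.92 and Slc17a7 0.90. The permutation p was 1e-05 for each of these, the smallest that 100000 permutations can give, and their adjusted p was 3.81e-05.

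Genes listed as inhibitory were more mixed. Cck had r of 0.96 with Snap25, and its level in ConAstro was 11.3 CPM per kb where that of Slc32a1 was 0.860. The r with Snap25 was 0.79 (rho 0.81) for Vip, 0.74 (rho 0.62) for Slc32a1 and 0.67 (rho 0.45) for Sst. For Slc32a1 the adjusted p by permutation was 0.000251 for r and 0.00764 for rho. For Sst it was 0.00157 for r and 0.0896 for rho, so that Sst missed the threshold by rank. Tubb3, Nefl and Bcl11b missed it by rank too (adjusted p of rho 0.0817, 0.0682 and 0.112 by permutation). Without the 2 libraries farthest from the median of Snap25, cKOAstro replicate 4 and SFN-fed cKOAstro replicate 4, r was 0.93 for Cck, 0.68 for Vip, 0.58 for Slc32a1 and 0.47 for Sst. Without these 2 libraries the relation of Sst missed the threshold. Those of Nefl (0.40, against 0.64 over all 23 libraries), Grin2b (0.51, against 0.72) and Bcl11b (0.44, against 0.53) missed it too in their absence. Dlx1, a transcription factor of the inhibitory lineage, passed it in their absence (r = 0.55, against 0.38 over all 23 libraries), so that 19 members did. Within the 17 numbered libraries 18 members passed it, with a median r of 0.64, and within the 6 Astro-named ones 19 did, with a median r of 0.97. With group means removed 23 passed, and 22 did without the 2 libraries that went against their labels. Snap25 itself had r of 0.08 with the total count (permutation p = 0.703) and no relation with any of 10 marker sums past the threshold. Its r with the oligodendrocyte sum was -0.08, and 0.57 without the 2 farthest libraries. With the microglia sum it was -0.44 (adjusted p = 0.232 by permutation), and -0.63 without them.

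The relations of the immature markers missed the threshold. Dcx and Sox11 had r of 0.45 with each other (adjusted p = 0.0885 by permutation). Dcx had r of 0.17 and Sox11 of -0.42 with Snap25 (adjusted p = 0.675 and 0.107 by permutation), and 0 of 30 members passed the threshold with Dcx as the anchor, where the median r was 0.11. In the numbered libraries 1 member did.

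The genes most like Snap25 in pattern, over 23 libraries and 17301 other genes, were Vsnl1, a neuronal calcium sensor (r = 0.99), Dnm1, the dynamin of synaptic vesicle retrieval (0.99), the neuronal chemokine Cx3cl1 (0.98), Chgb, a protein of secretory granules (0.98), and Grin1 (0.98). These libraries are the same ones for every gene, so the values describe likeness and were not tested.

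Camk2a followed a pattern of its own. It was at 661, 144, 269 and 90.9 CPM in ConAstro, at 61.6 to 668 CPM (median 165) in cKOAstro, at 344, 83.1, 396, 102 and 152 CPM in SFN-fed ConAstro and at 27.4 to 710 CPM (median 99.9) in SFN-fed cKOAstro. It was high in ConAstro replicate 1, cKOAstro replicate 5, SFN-fed ConAstro replicates 1 and 3 and SFN-fed cKOAstro replicates 1 and 7, and was at 114 CPM in cKOAstro replicate 4, where Snap25 was highest. Its r with Snap25 was 0.08 (rho -0.08, permutation p = 0.722, adjusted p = 0.847). With Camk2a as the anchor, chosen after the values were seen, 4 of 30 members passed an adjusted p of 0.05 over those 30 relations. They were the RNA-binding protein gene Celf4 (r = 0.87), the neurofilament Nefl (0.80), Bcl11b (0.56) and, with a negative sign, Elavl3 (-0.59). Without the 2 libraries farthest from the median of Camk2a these were 0.80, 0.70, 0.41 and -0.44. Celf4 and Nefl were the 2 of 30 members with r above 0.6, where 3.20% of all genes had r above 0.6 with Camk2a and 0.283% had r above 0.9.

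**Figure D4:**
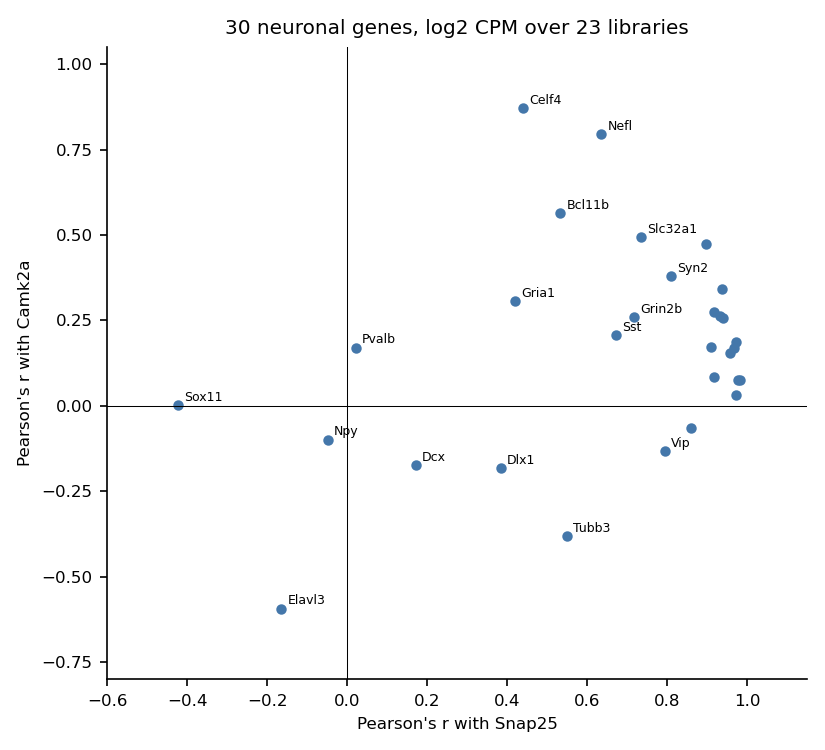
Pearson's r of log2 CPM over 23 libraries with Snap25 (horizontal) and with Camk2a (vertical) for the other 30 members, each a point, with names given for those with r below 0.85 on the horizontal axis. The cluster at the right holds members with high r with Snap25 and low r with Camk2a, Celf4 (0.87) and Nefl (0.80) lie at the top, and Elavl3 (-0.59) lies at the lower left.

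Among the genes most like Camk2a were Hpcal4, Fbxl16 and Dlgap3 (r = 0.99 for each) and Ddn, the gene of dendrin (0.98). In the list of 22 further presynaptic genes, Rims1, an active zone scaffold, had r of 0.97 with Camk2a and -0.01 with Snap25, while Dnm1, Sncb and Syt4 had 0.96 to 0.99 with Snap25 and at most 0.09 with Camk2a. In the list of 18 postsynaptic genes, the scaffolds Shank1 (0.97), Shank3 (0.93) and Dlg4 (0.89) lay with Camk2a and had 0.08 to 0.20 with Snap25. The scaffold Homer1 had 0.89 with Snap25 and 0.21 with Camk2a, and the GABA receptor subunit Gabrb2 had 0.96 and 0.09. The genes named were picked after their values were seen. Over whole lists, r with Camk2a was above 0.6 for 5 of 22 presynaptic genes (median 0.16) and 4 of 18 postsynaptic genes (0.22). Camk2a also correlated with the summed CPM of the microglia markers (r = 0.64, rho 0.64, permutation p = 0.00119, adjusted p = 0.0327 over 110 relations of 10 members with 10 marker sums and the total count). Within numbered names that r was 0.50, within Astro names 0.64, and without the 2 libraries farthest from the median of Camk2a 0.58. Its r with the oligodendrocyte sum was -0.55 (adjusted p = 0.0551 by permutation).

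Elavl3, called HuC, is used as a pan-neuronal marker, yet its r with Snap25 was -0.16 (permutation p = 0.447) where rho was 0.32, and within numbered names r was 0.31. It was at 337, 353, 263 and 310 CPM in ConAstro and at 336, 333, 289, 365 and 355 CPM in SFN-fed ConAstro. Its log2 CPM correlated with the summed oligodendrocyte markers at r = 0.95 and rho 0.90 (permutation p = 1e-05, the smallest that can be given, adjusted p = 0.00110). Without the 2 libraries farthest from the median of Elavl3 it was 0.85, within numbered names 0.88 and within Astro names 0.98. The genes most like Elavl3 were Gltp, a glycolipid transfer protein, Rhog and Tbc1d10b (r = 0.96 or 0.97), the myelin enzyme Cnp (0.96, and one of the markers summed) and Nkain1 (0.96). By contrast Elavl4, a close relative, had r of 0.86 with Snap25.

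Pvalb, at 0.909 to 7.48 CPM, had r of 0.02 with Snap25 and followed the summed ependymal markers, with r = 0.75 and rho 0.73 (permutation p = 2e-05, adjusted p = 0.00110). That was 0.66 without the 2 libraries farthest from the median of Pvalb, 0.77 within numbered names and 0.63 within Astro names. Npy had r of -0.05 with Snap25 (rho 0.23) and -0.61 with the astrocyte marker sum (permutation p = 0.00172, adjusted p = 0.0378, and rho -0.58 with an adjusted p of 0.0641), within numbered names -0.65 and within Astro names -0.61. The genes most like Npy were the zinc transporter Slc30a2 (r = 0.95), the secreted Wnt binder Frzb (0.95), Esyt3 (0.94), the receptor gene Met (0.92) and the protease Prss56 (0.91). Without ConAstro replicate 3 and cKOAstro replicate 7, the libraries farthest from the median of Npy, those r were 0.81 to 0.89. Gria1, an AMPA receptor subunit that glia also use, had r of -0.76 with the oligodendrocyte precursor sum (permutation p = 0.00016, adjusted p = 0.00587), with -0.53 without the 2 libraries farthest from its median, -0.61 within numbered names and -0.95 within Astro names. These 5 relations were the only ones of the 110 past the threshold by Pearson's r. By rank, Dlx1 and the endothelial sum also passed it (rho -0.65, adjusted p = 0.0278 by permutation, where r was -0.57 with an adjusted p of 0.0551). Which cells carried the RNA was not measured.

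**Figure D5:**
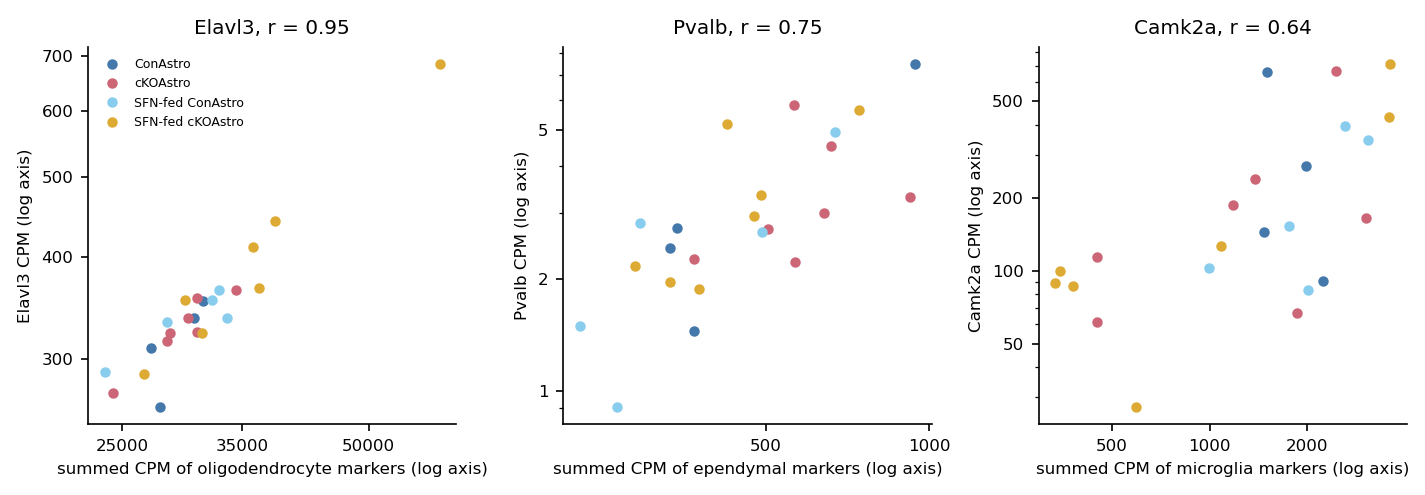
CPM of Elavl3, Pvalb and Camk2a (vertical, log axes) against the summed CPM of oligodendrocyte, ependymal and microglia markers (horizontal, log axes), each point 1 library coloured by group, with Pearson's r of the log2 values in the titles. Elavl3 and the oligodendrocyte sum rise together, with SFN-fed cKOAstro replicate 4 at 685 CPM and 61048 CPM, and the points of Camk2a are the most scattered.

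The other neuronal lists gave no gene past the adjusted threshold in any comparison with edgeR. Between cKOAstro and ConAstro, 13 of 22 presynaptic genes were higher with a median log2 fold change of 0.09, 9 of 18 postsynaptic genes with a median of -0.004, 17 of 20 genes of the neuronal cytoskeleton and excitability with 0.13, 10 of 14 further genes of excitatory neurons with 0.11, 14 of 18 of inhibitory neurons with 0.30, 12 of 15 of neuroblasts and neurogenesis with 0.09 and 10 of 12 of striatal neurons with 0.21, where the median over all genes was -0.01. With SFN feeding in the deleted genotype the medians of these lists ran from -0.17 to 0.06. Of the 10 genes of the complex that silences neuronal genes outside neurons, 3 were higher in cKOAstro than in ConAstro, with a median of -0.04. Abundant genes of these lists included Scg3, a granule protein (864 to 1431 CPM), Mapt, the gene of tau (511 to 1039 CPM), and the potassium channel Kcna1 (160 to 459 CPM) in the cytoskeleton and excitability list, the vesicle proteins Sv2a (220 to 546 CPM) and Vamp2 (236 to 324 CPM), the phosphatase subunit Ppp3ca (207 to 299 CPM) and the tubulin Tubb2b (281 to 557 CPM).

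These lists followed Snap25 to unequal degrees between libraries. The r with Snap25 was above 0.6 for 13 of 22 presynaptic genes (median 0.73), 9 of 18 postsynaptic genes (0.49), 13 of 20 genes of the cytoskeleton and excitability (0.82), 7 of 14 further excitatory genes (0.58), 4 of 18 further inhibitory genes (0.25), 4 of 12 striatal genes (0.45), 1 of 15 genes of neuroblasts and neurogenesis (0.17) and 0 of 10 genes of the silencer complex (-0.20). Over all genes the median r was -0.04. Dissociation and stress genes, which respond to cell handling, were lower in cKOAstro than in ConAstro for 11 of 12 genes (median log2 fold change -0.13) and higher with SFN in the deleted genotype for 11 of 12 (0.14), with 0 past the adjusted threshold. Their part in the members' values was not tested.

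Some members share exon bases with other genes, and the strand setting of the counting is not given in the sources used here. Nefl and Nefm overlap each other on opposite strands over 1108 bases, 32.8% and 19.2% of their exons. Opposite-strand genes cover 24.9% of the exon bases of Slc32a1, 16.8% of Syp, 13.5% of Grin1 and 6.21% of Dlx1. Reads in such bases could have been left out or given to the wrong gene, which was not tested. Overlaps of Elavl3, Syn1, Syn2 and Grin2b were 3.72% or less.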

How the data were processed

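RNA of sorted cortical astrocytes was sequenced by the authors, 1 library per mouse, checked with FastQC and aligned to mm10 with STAR. The deposited table holds raw read counts per gene symbol for 23 libraries. The version of STAR, the gene annotation and the strand setting are not given in the sources used here. Library totals ranged from 46890715 to 391701247 counts, and counting error is least in the deepest libraries.

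The members and the 20 other gene lists were chosen with earlier results of these data known. Genes were kept by filterByExpr of edgeR (minimum count 10, minimum total 15). The groups were set against each other in edgeR 4.0.16 by its quasi-likelihood test (limma 3.58.1, R 4.3.3) after TMM normalization, on the 2 groups of each comparison, or on all 4 for the interaction. P-values were adjusted by Benjamini-Hochberg over all genes tested. DESeq2 1.42.0, another normalization, no filter, thinning to the smallest total, other sets of libraries and a replicate block were alternatives. The fits were tested on simulated data. Replicates are separate mice.

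CPM were computed here with TMM, and log2 CPM with a prior count of 2. Levels between genes were divided by exon length from GENCODE M21, to which 23376 of 24411 symbols matched. Correlations used 100000 two-sided permutations (Python 3.11.15, numpy 2.4.6, scipy 1.17.1).

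Library values are given for Snap25, Syt1, Slc17a7, Slc32a1, Sst, Npy, Dcx and Sox11, and a fold change with its error for members with an unadjusted p under 0.05 or the lowest p of a comparison. Other lists are given by counts, medians and at most 3 genes of high mean CPM. Library values of Camk2a, Elavl3, Tubb3 and Vip, the relations with Camk2a and with marker sums, the genes most alike and the list genes named by their r were chosen after their values were seen. Some genes of these lists are not reported here.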

Additional observations from a re-analysis of the deposited data

Results flagged for a closer look

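In 20 of 128 sets of values, each 1 member in 1 group, the highest or lowest library stood apart by Dixon's criterion at the 95% level. For normally distributed values chance gives about 1 in 20. The criterion was applied to CPM without logs, so that rate need not hold here. The members are correlated, so these sets are not independent. In 12 of them the library was cKOAstro replicate 4, which was the highest of its group for Snap25 at 299.8 CPM, Syt1 at 154 CPM, Syp at 231 CPM, Rbfox3, the NeuN gene, at 48.9 CPM, Grin1 at 41.6 CPM, Stmn2 at 38.2 CPM, Cck at 35.5 CPM, Nefm at 16.03 CPM, Tbr1 at 13.9 CPM, Neurod2 at 12.8 CPM, Grin2b at 10.8 CPM and Vip at 5.24 CPM.

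SFN-fed cKOAstro replicate 4 was the lowest of its group for the synapsin Syn2 at 33.3 CPM and for Slc32a1 at 0.614 CPM, and the highest for Elavl3 at 685 CPM and Npy at 22.5 CPM. The same library had the highest oligodendrocyte and the lowest astrocyte marker sum, and the part of these in the values was not tested. Camk2a stood apart at 668 CPM in cKOAstro replicate 5, Npy at 133 CPM in ConAstro replicate 3, Syn2 at 74.2 CPM in ConAstro replicate 1 and Slc32a1 at 4.24 CPM in SFN-fed ConAstro replicate 5.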

How the results depend on the processing

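In 134 fits with an alternative setting, 0 had a member past an adjusted p of 0.05 with edgeR or DESeq2. The lowest adjusted p of any member was 0.0726, for Tubb3 between SFN-fed cKOAstro and SFN-fed ConAstro without SFN-fed cKOAstro replicate 3, where its log2 fold change was 0.99. The members' median log2 fold change moved by less than the spread between single mice (SD 0.44) in each alternative. That median was only 0.002 to 0.21 in the main fits, so a move below this SD does not show that it held steady. Without 1 library at a time it ran from 0.022 (cKOAstro replicate 4) to 0.42 (ConAstro replicate 1) between cKOAstro and ConAstro, from 0.028 (SFN-fed ConAstro replicate 3) to 0.26 (SFN-fed ConAstro replicate 5) between SFN-fed cKOAstro and SFN-fed ConAstro, from -0.071 (ConAstro replicate 4) to 0.33 (ConAstro replicate 1) between SFN-fed ConAstro and ConAstro, from -0.040 (SFN-fed cKOAstro replicate 6) to 0.21 (cKOAstro replicate 4) between SFN-fed cKOAstro and cKOAstro, from 0.060 (ConAstro replicate 4) to 0.44 (ConAstro replicate 1) between SFN-fed cKOAstro and ConAstro, and from -0.28 (ConAstro replicate 1) to 0.14 (ConAstro replicate 4) for the interaction. Its sign turned in the third, the fourth and the last of these. In that order, the number of members at an unadjusted p under 0.05 ran over 0 to 5, 1 to 3, 0 to 3, 0 to 2, 0 to 2 and 0 to 1, with 5 without ConAstro replicate 1 and 3 without SFN-fed cKOAstro replicate 4 and without ConAstro replicate 4.

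Over all genes, DESeq2 called 8 genes between cKOAstro and ConAstro, against 4 with edgeR, 1 with a replicate block and 0 with all 4 groups in the fit. In the other comparisons edgeR called 0 and DESeq2 254, 21, 6, 8 and 8. Between SFN-fed cKOAstro and SFN-fed ConAstro, edgeR called 701 genes without SFN-fed cKOAstro replicate 3, 2 without the libraries that went against their labels and 3 with all 4 groups in the fit. Between SFN-fed cKOAstro and ConAstro it called 2 without the libraries that went against their labels, 2 without SFN-fed cKOAstro replicate 2 and 1 without replicate 7. Without ConAstro replicate 4 it called 2 between cKOAstro and ConAstro and 1 between SFN-fed ConAstro and ConAstro.

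The log2 fold change of Npy turned without ConAstro replicate 3. Leaving out 1 library at a time gave -3.89 to 0.033 between SFN-fed ConAstro and ConAstro, -3.36 to 0.97 between SFN-fed cKOAstro and ConAstro, and -0.72 to 3.296 for the interaction. With a replicate block it was 0.14 between SFN-fed cKOAstro and ConAstro. The block called 0 members in any comparison, with medians of 0.12, -0.04, -0.004, 0.02, -0.07 and 0.02 in the order of the report. Replicate numbers are only numbers in titles, and same-numbered libraries had correlations of deviations between -0.21 and 0.34, so that the libraries were not treated as paired.

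The r with Snap25 changed sign in numbered libraries for Elavl3 (0.31), Camk2a (-0.039), Npy (0.19) and Pvalb (-0.20), without the 2 libraries farthest from the median of Snap25 for the same genes (0.46, -0.18, 0.14 and -0.070), and in Astro-named libraries for Dcx (-0.26). For these the cause was not tested. In numbered libraries 1 member passed the threshold with Dcx. Dividing by the longest transcript in place of all exon bases gave 13.6 CPM per kb for Syt1, 27.7 for Slc17a7 and 0.616 for Dcx in ConAstro.

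Small differences were not detectable with this spread: the median SE of a member's log2 fold change was 0.30 to 0.42 in the comparisons of 2 groups and 0.51 for the interaction. Astro names are absent from ConAstro, so for the Astro-named libraries name series and group cannot be told apart in comparisons with ConAstro. The leading numbers of the numbered names are shared by no ConAstro and cKOAstro library, so leading number and group cannot be told apart there either. Total counts did not overlap between ConAstro and cKOAstro libraries, so neither can depth and group. The reads carry no record of the cell they came from.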
